A study of Mus musculus with 6 samples.

Results

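The ryanodine receptor release unit was followed here through 10 genes: Ryr2, Casq1, Casq2, Trdn, Asph, Jph1, Jph2, Hrc, Fkbp1b and Sri. They were taken by name, and every probe set that the platform annotation ties to 1 of them alone was used, which gave 25 of 45037 probe sets and 10 of 18193 named genes. Trdn and Asph had 6 probe sets each, Sri had 3, and Ryr2, Jph1 and Jph2 had 2 each. Casq1, Casq2, Hrc and Fkbp1b had 1 each. A probe set is a group of array probes against 1 transcript region, and its value here is a log2 expression value, so that a difference of 1 is a change of 2-fold.

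Left ventricular apex RNA of 6 female littermates was hybridised, each mouse to 1 Affymetrix array. In the 3 PTIP KO mice, 1 allele of Paxip1, which encodes the nuclear protein PTIP, was floxed and the other was null, and a transgene expressed Cre recombinase fused to a modified estrogen receptor under the cardiac alpha myosin heavy chain promoter. In the 3 PTIP+ mice, 1 allele was floxed and the other wild type. No Cre transgene is named for PTIP+ mice, so that loss of PTIP, the null allele and the presence of Cre cannot be told apart. Both groups were 8 weeks old, were on the same mixed background of C57B6 and B6129, and were given 20 mg/kg of tamoxifen. According to 1 label, tissue was taken 5 days after tamoxifen, and according to another the treatment itself lasted 5 days. The promoter limits the induced deletion to cardiomyocytes, while the tissue also holds other cells.

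In a ventricular cardiomyocyte, calcium that enters through the T-tubule membrane opens the ryanodine receptor Ryr2 in the facing sarcoplasmic reticulum, and the calcium released there starts contraction. Junctophilins hold the 2 membranes together at this contact, which is called the dyad. Inside the reticulum, calsequestrin stores calcium and is tied to the channel by triadin and junctin, and accessory proteins such as the immunophilin Fkbp1b and sorcin bind the channel from the cytosol.

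The arrays carried the labelled difference: all 4 probe sets of Paxip1 were lower in the PTIP KO mice, by log2 differences between -1.83 and -0.95, and 3 of them passed. The 6 arrays correlated between 0.989 and 0.995 over all probe sets. All 8 cardiomyocyte markers examined, such as Myh6, Tnnt2 and Myl2, read above 12.5 in every mouse, as their lowest value was 12.51. None of the 8 passed, and their differences lay between -0.06 and 0.16. PTIP+ 1 stood apart among the controls in the summed log2 level of 8 skeletal muscle markers, at 45.5, against 39.6 and 41.0 in the other PTIP+ mice, and of 5 atrial markers, at 44.97, against 40.79 and 39.31. In bulk tissue, fewer cells of a type and less RNA per cell cannot be told apart.

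No release unit transcript passed the test between PTIP KO and PTIP+ ventricles. With limma, none of the 25 probe sets passed an adjusted p of 0.05, which 0.191% of all probe sets did. On the brightest probe set of each gene, 9 of the 10 genes differed by log2 values between -0.11 and 0.10, and Jph1 by -0.66. By sign on these probe sets, 5 genes were higher and 5 lower in the PTIP KO mice, with a median difference of -0.01, beside 0.02 over all named genes. Asph, lower here, was at 0.15 as the mean of all its probe sets. At an unadjusted limma p under 0.05 there were 4 of 25 probe sets, or 3 higher and 1 lower, against a background of 9.07%. The 3 higher ones belonged to Trdn and Asph and the lower one to Jph1. The groups did not overlap on 5 of the 25 probe sets, or 20%, while 14.4% of all probe sets had groups that did not overlap.

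**Figure D1:**
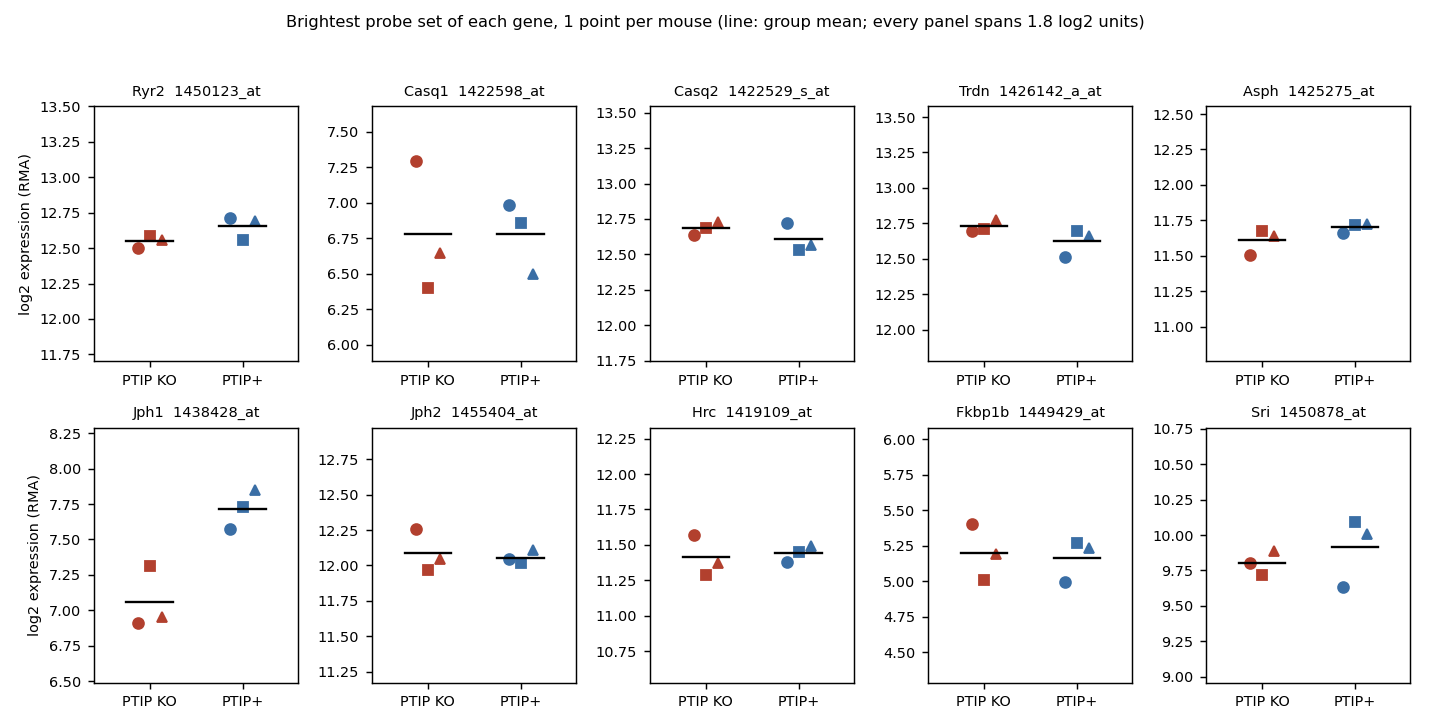
Log2 expression (RMA) of the brightest probe set of each of the 10 genes in each mouse, with PTIP KO left of PTIP+; circles, squares and triangles are mice 1, 2 and 3 of a group, and lines are group means. Every panel spans 1.8 log2 units. The groups are apart on Jph1 and, by a narrow margin, on Trdn, and overlap on the other 8 genes.

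The confidence intervals bounded the size of undetected differences in array signal, probe set by probe set, and not in transcript number. The 95% confidence interval of the difference lay within a log2 value of 0.5 in either direction for 8 of the 10 genes on their brightest probe set, the others being Casq1 and Jph1. Of all 25 probe sets, 15 had intervals within 0.5. Those of Trdn 1426143_at, at 0.32 to 0.94, and Asph 1450058_at, at 0.19 to 0.68, reached beyond it. So did Ryr2 1421126_at, at -0.59 to 0.07, Sri 1453457_at, at -0.73 to 0.48, and Jph2 1421453_at, at -0.77 to 1.06. The bound for these genes therefore holds for the brightest probe set only. The interval lay within 1 in either direction for 24 of the 25 probe sets. The exception was the dimmer Jph2 probe set, whose SD within groups was 0.632, the widest of all members, against a median of 0.158.

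**Figure D2:**
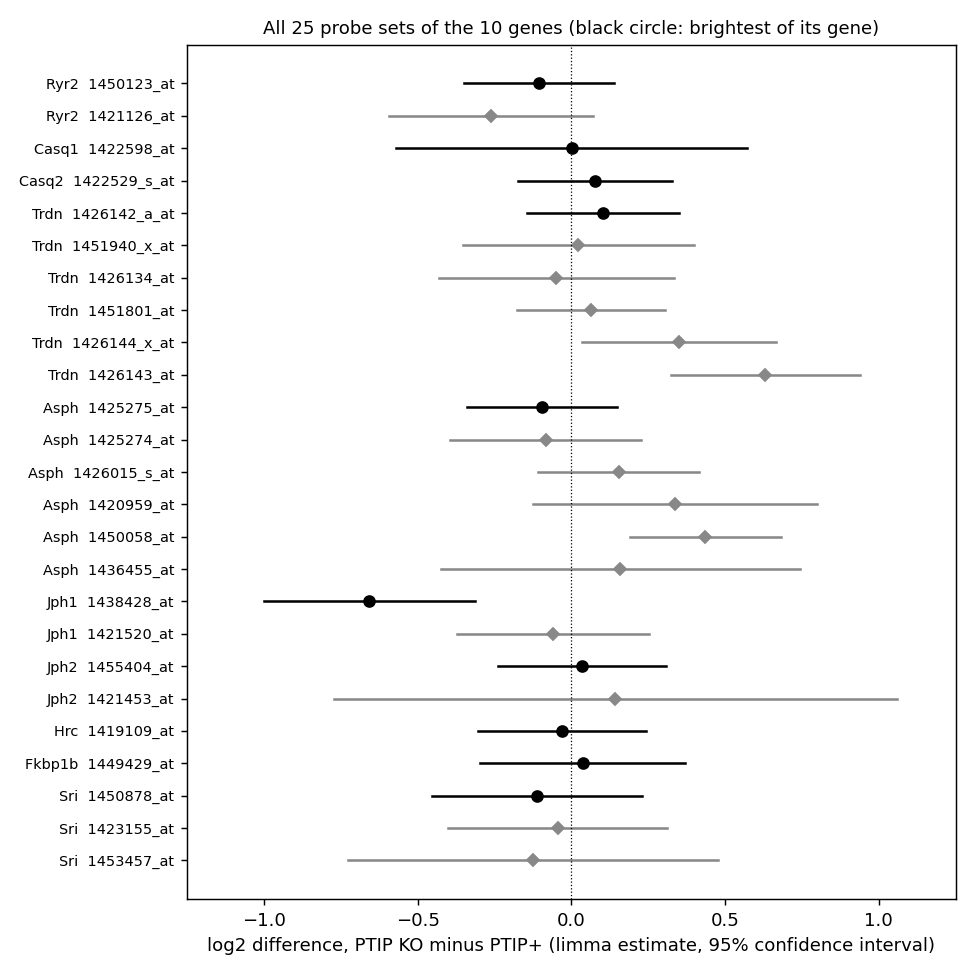
Log2 difference, PTIP KO minus PTIP+, of all 25 probe sets with the 95% confidence interval from limma; black circles are the brightest probe set of a gene and grey diamonds its others. The intervals of 4 probe sets leave out 0: 2 of Trdn and 1 of Asph on the higher side, and 1 of Jph1 on the lower side.

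Ryr2 encodes the release channel itself. On its brightest probe set, 1450123_at, Ryr2 read 12.50, 12.58 and 12.56 in the PTIP KO mice, against 12.72, 12.56 and 12.69 in the PTIP+ mice. The groups overlapped, since PTIP+ 2 lay level with PTIP KO 3. The difference was -0.11 (SE 0.10, 95% interval -0.35 to 0.14, limma adjusted p = 0.849), so that a level in PTIP KO between 0.785-fold and 1.10-fold of that in PTIP+ is inside the interval. The second Ryr2 probe set, 1421126_at, read 10.90, 11.16 and 10.86 in PTIP KO mice and 11.03, 11.38 and 11.29 in PTIP+ mice. It differed by -0.26 (SE 0.14, 95% interval -0.59 to 0.07, limma adjusted p = 0.668) and had the same sign, with PTIP KO 2 above PTIP+ 1.

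The calsequestrins are the calcium stores of the release unit, Casq2 in heart and Casq1 mainly in fast skeletal muscle. Their promoter windows are shown as the sequence context of these paralogs, from RefSeq on GRCm38.p6, 250 bases before to 50 after the annotated start. Casq2 lies on the plus strand at chr3:102086165-102086464 and Casq1 on the minus strand at chr1:172219846-172220145. Capitals mark matches of the E box CANNTG and of the MEF2 motif on either strand.
Casq2: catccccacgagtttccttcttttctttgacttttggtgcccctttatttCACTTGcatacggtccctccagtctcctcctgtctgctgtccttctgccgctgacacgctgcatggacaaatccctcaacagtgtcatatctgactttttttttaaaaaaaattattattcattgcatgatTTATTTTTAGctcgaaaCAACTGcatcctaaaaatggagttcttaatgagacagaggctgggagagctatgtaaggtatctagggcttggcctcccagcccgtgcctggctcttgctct
Casq1: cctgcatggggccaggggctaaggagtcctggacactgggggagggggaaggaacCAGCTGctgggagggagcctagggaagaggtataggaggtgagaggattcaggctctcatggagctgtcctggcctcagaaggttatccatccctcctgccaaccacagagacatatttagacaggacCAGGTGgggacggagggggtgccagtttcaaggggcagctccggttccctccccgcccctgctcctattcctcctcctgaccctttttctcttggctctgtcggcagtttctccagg
Each window held 2 E box matches, and 72.3% of 32851 promoter windows held at least 1. A MEF2 match was found in the Casq2 window, at 69 bases before the start, and in none of the other 7 windows listed for Ryr2, Casq1, Jph2, Hrc, Fkbp1b and Sri. The background share was 3.19%. Further motifs were searched on both strands. The TATA box, spelled TATAAA, was found in 13.6% of all windows. The M-CAT motif, spelled CATTCC, was found in 14.7%, the GC box, spelled GGGCGG, in 35.7%, the GATA motif, spelled AGATAA, in 11.2%, and the CArG box in 1.63%. Of these, the Casq1 window held 1 GC box match and the Casq2 window none. Trdn, Asph and Jph1 have no entry in the promoter table used.

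Neither calsequestrin gene passed. Casq2, on probe set 1422529_s_at, read 12.63, 12.69 and 12.73 in PTIP KO mice, against 12.72, 12.53 and 12.56 in PTIP+ mice. The groups overlapped through PTIP+ 1, and the difference was 0.08 (SE 0.11, 95% interval -0.17 to 0.33, limma adjusted p = 0.901). Casq1, on probe set 1422598_at, read 7.30, 6.40 and 6.65 in PTIP KO mice and 6.98, 6.86 and 6.50 in PTIP+ mice. The group means were 6.78 in both, but PTIP KO 1 was the highest of all 6 mice and PTIP KO 2 the lowest. The Casq1 interval therefore ran from -0.57 to 0.57, and without PTIP KO 1 the difference was -0.26 (limma adjusted p = 0.799). The chromosome 1 and chromosome 3 copies were each read by a single probe set, so that no second reading was at hand.

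Trdn encodes triadin, which links calsequestrin to the ryanodine receptor in the membrane of the junctional reticulum and is made in several spliced forms. On its brightest probe set, 1426142_a_at, Trdn read 12.70, 12.71 and 12.77 in PTIP KO mice, against 12.51, 12.70 and 12.66 in PTIP+ mice. The lowest PTIP KO mouse was 12.698 and the highest PTIP+ mouse 12.697, so the groups only just did not overlap. The difference was 0.10 (SE 0.11, 95% interval -0.14 to 0.35, limma adjusted p = 0.853), and 0.05 without PTIP+ 1.

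A dimmer Trdn probe set, 1426143_at, had the smallest p of the 25. It read 9.46, 9.70 and 9.81 in PTIP KO mice and 8.91, 9.14 and 9.02 in PTIP+ mice. Every PTIP KO mouse lay above every PTIP+ mouse, with a gap wider than the spread within PTIP+ but narrower than that within PTIP KO. The difference was 0.63 (SE 0.13, 95% interval 0.32 to 0.94), a ratio of 1.55, with an unadjusted p of 0.00166 that ranked 401 of 45037 and an adjusted p of 0.184 in limma. The exact permutation p was 0.1, the smallest that 3 against 3 mice allow. When each mouse was left out in turn, the difference lay between 0.55 and 0.73.

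The neighbouring Trdn probe set, 1426144_x_at, read 10.38, 10.57 and 10.77 in PTIP KO mice and 10.10, 10.27 and 10.30 in PTIP+ mice. These groups also did not overlap, and the difference was 0.35 (SE 0.13, limma adjusted p = 0.501). Groups overlapped on the remaining 3 Trdn probe sets, with differences of 0.02, -0.05 and 0.06. In the annotation, the 6 Trdn probe sets come from 3 cDNA records. Both probe sets with the larger differences share their record with the brightest one, which differed by 0.10, and the 2 probe sets of the second record differed by 0.02 and -0.05.

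Asph is a single gene for junctin, the partner of triadin, for junctate, and for the enzyme aspartate beta-hydroxylase, which are made from different exons. Its brightest probe set, 1425275_at, read 11.51, 11.68 and 11.64 in PTIP KO mice, against 11.66, 11.72 and 11.73 in PTIP+ mice. The groups overlapped and the difference was -0.09 (SE 0.10, 95% interval -0.34 to 0.15, limma adjusted p = 0.866). The next brightest, 1425274_at, which comes from the same cDNA record, differed by -0.08.

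On another cDNA record, both Asph probe sets were higher in the PTIP KO mice without passing. Probe set 1450058_at read 9.66, 9.59 and 9.76 in PTIP KO mice, against 9.18, 9.27 and 9.26 in PTIP+ mice. The groups were apart and each was narrow, with an SD of 0.087 in PTIP KO and 0.049 in PTIP+. The Asph difference there was 0.44 (SE 0.10, 95% interval 0.19 to 0.68), with an unadjusted p of 0.00381 and an adjusted p of 0.252 in limma. Probe set 1420959_at of the same record read 9.36, 10.04 and 9.92 in PTIP KO mice and 9.64, 9.35 and 9.32 in PTIP+ mice. It overlapped through PTIP KO 1 and PTIP+ 1, and differed by 0.34 (SE 0.20, limma adjusted p = 0.701). The remaining Asph probe sets, 1426015_s_at and 1436455_at, each from a record of its own, differed by 0.15 and 0.16 with overlapping groups. The annotation does not say which product each Asph record encodes.

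Since probe sets of 1 gene are read in the same mouse, each was also set against the brightest one of its gene within that mouse. This was done for the 14 pairs, from 5 genes, in which both probe sets had means above 5.19, the median over the whole array. The groups did not overlap in 4 pairs, or 28.6%, 2 of Trdn and 2 of Asph, and each was higher in the PTIP KO mice. Over all 8347 such pairs of named genes on the array, 9.32% had groups that did not overlap. Pairs of 1 gene share its brightest probe set and are not independent.

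For Trdn 1426143_at minus 1426142_a_at, the within-mouse difference was -3.24, -3.02 and -2.97 in PTIP KO mice and -3.60, -3.56 and -3.64 in PTIP+ mice. For Asph 1450058_at minus 1425275_at it was -1.84, -2.09 and -1.88 in PTIP KO mice, against -2.48, -2.45 and -2.46 in PTIP+ mice. Each of the 2 pairs was thus higher by 0.53 in PTIP KO. The PTIP+ mice differed among themselves by less than 0.1, and the PTIP KO mice by more than that. The other 2 pairs that did not overlap, Trdn 1426144_x_at and Asph 1426015_s_at, were each higher by 0.25. The exact permutation p of each of the 4 was 0.1, the smallest the design allows, or 0.35 after Benjamini-Hochberg adjustment over the 14 pairs. Without PTIP+ 1 the groups did not overlap in 9 of the 14 pairs, or 64.3%, beside 24.3% of the pairs on the array. As a measure of RNA integrity, the 3' minus 5' signal of the actin controls (log2) was 1.51, 1.45 and 1.64 in the PTIP KO mice and 1.85, 1.17 and 1.38 in the PTIP+ mice, and so overlapped between the groups. That overlap came from PTIP+ 1 alone, which had the highest value of all mice. Without PTIP+ 1, every PTIP KO mouse was above the other PTIP+ mice. The part of RNA integrity in the pair differences was not tested.

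**Figure D3:**
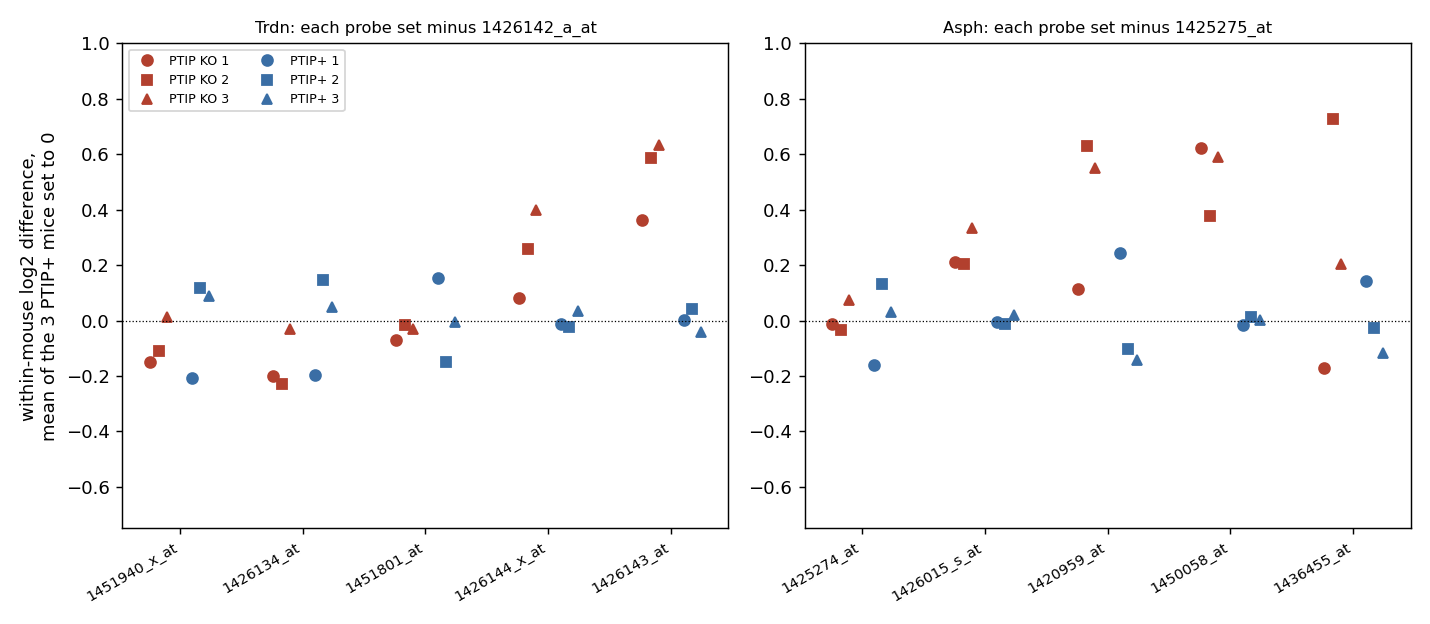
Within-mouse log2 difference between each Trdn (left) or Asph (right) probe set and the brightest one of its gene, with the mean of the 3 PTIP+ mice set to 0; PTIP KO points stand left of PTIP+ points. Trdn 1426143_at and 1426144_x_at and Asph 1426015_s_at and 1450058_at have all 3 PTIP KO mice above all 3 PTIP+ mice, and the other 6 overlap.

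Jph1 and Jph2 encode junctophilins, which span the gap between the T-tubule and the reticulum; Jph2 is the main cardiac form and Jph1 is best known from skeletal muscle. Jph1 had the largest difference of the 10 genes on the brightest probe set. On 1438428_at it read 6.91, 7.31 and 6.96 in PTIP KO mice, against 7.57, 7.73 and 7.85 in PTIP+ mice, and the groups did not overlap. The difference was -0.66 (SE 0.15, 95% interval -0.999 to -0.315), so that Jph1 read 1.58-fold lower in PTIP KO, with an unadjusted p of 0.00247 and an adjusted p of 0.215 in limma. The exact permutation p was 0.1. With each mouse left out in turn the Jph1 difference lay between -0.78 and -0.58, and it was -0.73 without PTIP+ 1.

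The second Jph1 probe set, 1421520_at, was dim, at 3.98 ± 0.21 in PTIP KO and 4.04 ± 0.05 in PTIP+ (SD, n = 3 each). It differed by -0.06 (SE 0.13, limma adjusted p = 0.944), and the mean of both Jph1 probe sets differed by -0.36. Because Jph1 and Casq1 are prominent in skeletal muscle, the skeletal muscle markers are given beside them. Of 8 such markers 7 were lower in PTIP KO and none passed, and their summed log2 level lay between 39.6 and 40.9 in PTIP KO mice and between 39.6 and 45.5 in PTIP+ mice. Among these markers the fast troponin gene Tnni2 differed by -1.04 (limma adjusted p = 0.182), with no overlap. The others lay between -0.24 and 0.04, and the median of all 8 was -0.13. The defining fast myosin genes Myh1, Myh2 and Myh4 read between 2.18 and 3.49 in all 6 mice, near the low end of the scale, which starts at 1.36. Other markers of the list read higher: Mylpf between 8.08 and 9.26, Myog between 6.93 and 8.28, Tnnt3 between 5.68 and 7.27 and Actn3 between 3.57 and 4.25. The part of the skeletal muscle markers in the Jph1 value was not tested.

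Jph2, on 1455404_at, read 12.26, 11.97 and 12.04 in PTIP KO mice and 12.04, 12.01 and 12.11 in PTIP+ mice. The groups overlapped, and the difference was 0.03 (SE 0.12, 95% interval -0.24 to 0.31, limma adjusted p = 0.967). The dimmer Jph2 probe set, 1421453_at, spread from 6.74 to 7.76 in PTIP KO mice and from 6.32 to 7.75 in PTIP+ mice, with a difference of 0.14 (SE 0.39).

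Hrc encodes a histidine-rich calcium-binding protein of the reticulum lumen that binds triadin. It read 11.57, 11.29 and 11.37 in PTIP KO mice, against 11.38, 11.45 and 11.49 in PTIP+ mice. PTIP KO 1 was the highest of the 6 and PTIP KO 2 the lowest, and the Hrc difference was -0.03 (SE 0.12, 95% interval -0.30 to 0.24, limma adjusted p = 0.972).

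Fkbp1b encodes an immunophilin that binds Ryr2 and steadies its closed state. Its probe set was dim, just under the array-wide median, and read 5.40, 5.01 and 5.19 in PTIP KO mice, against 4.99, 5.27 and 5.23 in PTIP+ mice. PTIP KO 1 was the highest of the 6 mice and PTIP+ 1 the lowest, and the groups overlapped between them. The Fkbp1b difference was 0.04 (SE 0.14, 95% interval -0.30 to 0.37, limma adjusted p = 0.971). At this brightness RMA compresses differences, so the interval bounds the compressed signal only.

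Sri encodes sorcin, a calcium-binding protein that lowers the activity of the ryanodine receptor. Its brightest probe set, 1450878_at, read 9.80, 9.71 and 9.89 in PTIP KO mice and 9.64, 10.09 and 10.01 in PTIP+ mice. PTIP+ 1 lay below all 3 PTIP KO mice and the other PTIP+ mice above them, so the groups overlapped. The Sri difference was -0.11 (SE 0.15, limma adjusted p = 0.892), and -0.25 without PTIP+ 1, where the limma adjusted p was 0.491. The other Sri probe sets differed by -0.04 and -0.12, and all 3 had the same sign.

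Genes that work beside the release unit were counted in 3 lists. The first held other dyad and release channel genes, such as the other ryanodine and inositol trisphosphate receptors, and 16 of its 20 genes were measured. None passed, beside a background of 0.286% of named genes, with 11 higher, 5 lower and a median difference of 0.07. The smallest p values belonged to Jsrp1, a junctional reticulum protein, at 0.31, Akap6, the anchoring protein of protein kinase A at the nuclear envelope and reticulum, at 0.35, Camk2d, the main cardiac calcium/calmodulin kinase, at 0.24 and Ryr3, a minor ryanodine receptor, at -0.63. Their limma adjusted p lay between 0.448 and 0.613. Probe sets of these genes did not all have the same sign. Among the other 6 of Camk2d, 1427763_a_at differed by 0.50 and 1460630_at by 0.25, but 1439168_at by -0.43 and 1459457_at by -0.52, and the dim 1444031_at and 1456844_at by 0.04 and -0.13. The other Ryr3 probe sets, both dim, differed by 0.10 and 0.07, and the second of Akap6 by 0.31. Jsrp1 had a single probe set, which was dim, with a mean of 5.01 that lay below the array-wide median. The other 4 genes of the list were not analysed here.

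None of the 12 genes of the T-tubule membrane and of calcium entry passed either. By sign 5 were higher and 7 lower, with a median of -0.08. The groups did not overlap for 6 of the 12, 3 higher and 3 lower, beside 16.0% of all named genes. They did not overlap for 4 of the 16 dyad and release channel genes and for 1 of the 7 calcium uptake genes. Mtm1, a phosphoinositide phosphatase needed for the membrane contacts of muscle, differed by -0.58 (limma adjusted p = 0.336), and its other probe sets by -0.30 and -0.51. Cacna2d1, an auxiliary subunit of the L-type calcium channel, read 11.68, 11.76 and 11.79 in PTIP KO mice, against 12.09, 12.05 and 12.12 in PTIP+ mice. It differed by -0.34 (limma adjusted p = 0.348), and its other 4 probe sets by -0.86 to -0.45. Slc8a1, the sodium-calcium exchanger, differed by 0.35 (limma adjusted p = 0.469) and its other 3 probe sets by 0.12 to 0.52, and Dysf, a membrane repair protein, by -0.33 (limma adjusted p = 0.575).

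Of the 7 measured genes of calcium uptake and luminal buffering, 1 passed. Mrln, whose micropeptide inhibits the calcium pump in skeletal muscle, was read by a single probe set. Its values were 6.56, 6.91 and 6.49 in PTIP KO mice, against 8.48, 8.29 and 8.38 in PTIP+ mice. Mrln fell by 1.73 on the log2 scale (SE 0.14, limma adjusted p = 0.0184). With any 1 mouse left out it did not pass, with limma adjusted p between 0.0523 and 0.0921. Its difference in those fits lay between -1.86 and -1.65, with an unadjusted limma p of at most 4.30e-05, while 0 to 21 probe sets of the whole array passed in them, against 86 with all mice. On their brightest probe sets, the other 6 genes of that list lay between -0.19 and 0.14 and did not pass. Hspa5, a chaperone of the reticulum, was at -0.19, Calr, calreticulin, at -0.14 and Atp2a1, the fast skeletal muscle calcium pump, at 0.14. Dimmer probe sets of Atp2a2 went further without passing, 1443551_at at -0.85, 1437797_at at -0.48 and 1427251_at at -0.33. Its brightest was at -0.04, and 1452363_a_at and 1427250_at were at -0.02 and -0.06. Strit1 was not analysed here.

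**Figure D4:**
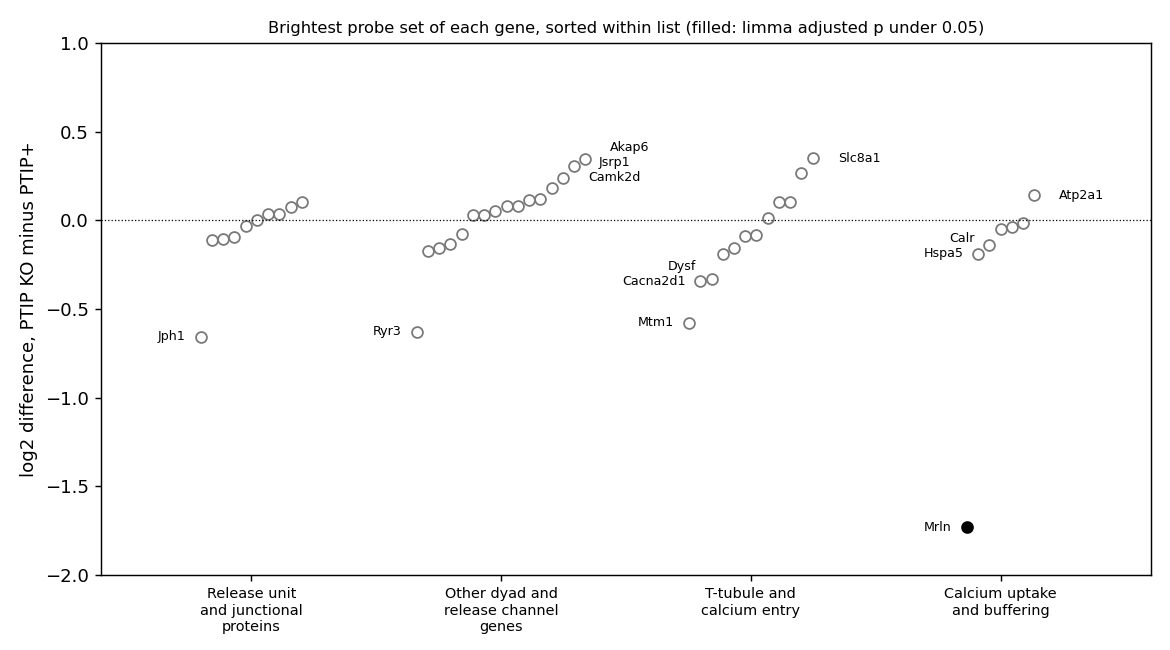
Log2 difference, PTIP KO minus PTIP+, of the brightest probe set of each gene, sorted within the 10 release unit genes and the 3 lists of neighbouring genes; filled points passed a limma adjusted p of 0.05. Mrln is the only filled point, at -1.73, and Jph1 is the lowest of the 10 release unit genes at -0.66.

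Markers of other cells were read beside these values. All 6 macrophage markers were lower in the PTIP KO mice, none passing, with a median difference of -0.33 and a summed log2 level between 50.7 and 53.6 in PTIP KO mice and between 53.9 and 54.8 in PTIP+ mice. The summed level did not overlap, and its part in the Jph1, Trdn and Asph values was not tested. The summed levels of the endothelial, fibroblast, smooth muscle and atrial markers overlapped between the groups, and none of these 23 marker entries passed.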

How the data were processed

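Per the submitters' processing notes, the authors used RMA (background correction, normalization between arrays, summary per probe set), and the deposited table holds its log2 output. Its version was not given in the labels used here. The log base was inferred from values between 1.36 and 14.1. Such values do not show a change in total RNA per cell. Labelled target was amplified with the NuGen Ovation system, per the labels.

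After leaving out 64 control probe sets, 45037 were tested with limma 3.58.1 in R 4.3.3 (lmFit, eBayes, group as the only term, PTIP KO minus PTIP+, two-sided). P values were adjusted by Benjamini-Hochberg over all of them, and under 0.05 passed. Symbols came from the platform annotation, updated through Entrez identifiers. 34945 probe sets had 1 gene, 932 several and 9160 none listed. A gene is represented by its probe set with the highest mean, and no filter on dim probe sets was applied. Single values were also tested by an exact permutation test.

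The text names every member, every Paxip1 probe set summarised together, and from each of 3 pathway lists the 4 genes with the smallest p. Atp2a2 is named besides, for its dimmer probe sets. Markers of 7 cell types were read beside them. Members and lists were chosen with earlier results of these data known. Precision is set by 3 mice per group (median standard error of a difference 0.147). Nothing but the separate labels says that the mice are independent replicates.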

Additional observations from a re-analysis of the deposited data

How the results depend on the processing

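None of the 25 member probe sets passed under any of 16 other settings run on probe sets, and none of the 10 genes passed in 16 run on genes, which changed the variance prior, array weights, the filter on dim signal (1 of 2 drops Fkbp1b), scaling, moderation, the threshold or the mice used. The lowest limma adjusted p of a member was 0.0865, for Trdn 1426143_at with array weights. Jph1, Trdn 1426143_at and Asph 1450058_at had 1 sign and an unadjusted p under 0.05 (limma) in each of these settings run on them. They are singled out because that p was under 0.05 with all mice. Refits of the same mice give no independent support. Trdn 1426144_x_at, also under 0.05 with all mice, kept its sign but was less stable. With 1 mouse left out, its unadjusted limma p was under 0.05 in only 1 of 6 fits, the one without PTIP KO 1. With no moderation it was not under 0.05 either. Small differences changed sign, none passing. With 1 mouse left out, Casq1 ran from -0.26 to 0.19 (negative without PTIP KO 1 or PTIP+ 3), Fkbp1b from -0.063 to 0.13 (negative without PTIP KO 1 or PTIP+ 1), Hrc from -0.11 to 0.031 (positive without PTIP KO 2) and Jph2 from -0.050 to 0.096 (negative without PTIP KO 1). Without change of sign, Trdn ran from 0.049 (without PTIP+ 1) to 0.14, Casq2 from 0.040 (without PTIP+ 2) to 0.13 (without PTIP+ 1), Asph from -0.13 to -0.044 (without PTIP KO 1) and Sri from -0.25 (without PTIP+ 1) to -0.021 (without PTIP+ 2). A further fit, over the 4 arrays that share leading digits of their description number, set PTIP KO 3 alone against all PTIP+ mice. It assumes that this mouse varies like the PTIP+ group, and is given as values only: Casq1 was -0.13, Jph2 -0.0099 and Mrln -1.89. Fkbp1b was -0.031 with array weights and Hrc 0.012 with median centring. Asph was 0.15 as the mean of all its probe sets. The 3 pathway lists held 1 passing gene, Mrln, and 0 with any mouse left out, with no moderation and with the replicate block, where its difference lay between -1.86 and -1.65. The number of pairs of probe sets without overlap was 4 to 9 with 1 mouse left out. This and the settings for single probe sets other than the brightest were chosen after seeing the data. The replicate numbers share no stated litter or day, and deviations of same-numbered mice correlated at -0.15, -0.08 and -0.01. With the number as a block no probe set of the whole array passed, and the limma adjusted p of Mrln was 0.141. The cause of these shifts was not tested.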
